A study of Arabidopsis thaliana with 6 samples.

Results

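Ribonucleotide reductase and thymidine kinase supply the deoxyribonucleotides from which DNA is made. Transcript counts of 5 Arabidopsis thaliana genes for these enzymes were followed here. They were picked out by their locus identifiers in the count tables, and chosen with earlier results of these data known. All 5 were found among the 33489 genes listed and passed the filter that left 21182 genes for testing. TSO2 (AT3G27060) and RNR2A (AT3G23580) encode the small subunit of ribonucleotide reductase, RNR1 (AT2G21790) encodes the large subunit, and TK1A (AT3G07800) and TK1B (AT5G23070) encode thymidine kinases. Polyadenylated RNA of whole seedlings, grown for 14 days on petri dishes, was sequenced in 3 samples of the double mutant zdp-1 ape2-2, labelled as a knockout of ZDP and APE2, and in 3 samples of Col-0, the wild type. The product of ZDP removes 3' phosphates from DNA ends, APE2 encodes an endonuclease for abasic sites, and both enzymes act in base excision repair. The kind of mutation, the number of lines behind the double mutant and the number of seedlings pooled per sample are not given in the sources used here, nor whether the samples of a group were grown separately. P-values are therefore set against a sample-to-sample spread that may be technical.

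Ribonucleotide reductase turns ribonucleoside diphosphates into deoxyribonucleoside diphosphates and is the committed step of de novo dNTP synthesis. The large subunit holds the catalytic and allosteric sites, and the small subunit holds the diiron centre and tyrosyl radical that start each reaction. Thymidine kinase works in the salvage branch, where it phosphorylates thymidine to thymidine monophosphate. In plants and other eukaryotes demand for dNTPs is high in S phase and during DNA repair, and E2F factors and, in plants, the damage response factor SOG1 are known regulators of such genes.

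Libraries held 37154781 to 37241739 counts in zdp-1 ape2-2 and 31190605 to 37222185 counts in Col-0, and the first principal component, with 75.0% of the variance, separated the genotypes. The counts of ZDP were 17.9 ± 1.43 CPM in zdp-1 ape2-2 and 29.4 ± 1.37 CPM in Col-0, and those of APE2 were 5.75 ± 0.121 CPM in zdp-1 ape2-2 and 8.18 ± 0.866 CPM in Col-0 (SD, n = 3 each). CPM is the count per 1000000 counts of the library total after TMM scaling. Both targeted genes were thus lower in the libraries labelled mutant, by 0.71 ± 0.05 for ZDP and 0.51 ± 0.08 for APE2 on the log2 scale (SE; edgeR adjusted p = 4.89e-15 and 2.65e-06), and a count per gene does not show in which part of the transcript the remaining reads lie. Exons of another gene, AT4G36052, lie over 33.6% of the exon bases of APE2.

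The 5 genes lie at separate loci on 3 chromosomes of the TAIR10 build. TSO2 lies at chr3:9979841-9981620 on the minus strand, with 1692 bp of exons in 2 blocks and a coding sequence for 332 residues. RNR2A lies at chr3:8459838-8462815 on the plus strand, with 1690 bp in 9 blocks and 341 residues. The large subunit gene RNR1 lies at chr2:9293261-9297861 on the plus strand, with 3000 bp in 17 blocks and 816 residues. TK1A lies at chr3:2489387-2491180 on the minus strand, with 1519 bp in 4 blocks and 238 residues. TK1B lies at chr5:7741898-7742978 on the plus strand as 1 block of 1081 bp, with a coding sequence for 282 residues. For TK1B alone of the 5, the start or end in the count tables differs from that in TAIR10.1, the NCBI release of this build. The coding sequences were read from TAIR10.1. The paralogs differ enough for reads to be told apart over most of their length: the coding sequences of TSO2 and RNR2A were identical at 65.1% of 987 aligned bases, with a longest identical run of 13 bp, and those of TK1A and TK1B at 65.6% of 704 bases, with a longest run of 11 bp. No BLAST alignment of at least 50 bp between the exons of these 5 genes and the rest of the genome averaged at least 90% identity. Stretches of higher identity inside an alignment were not searched for. TSO2 aligned with the pseudogene RNR2B at 82.2% identity over 1005 bp.

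The letters bound by E2F factors and by SOG1 were looked for upstream of the 5 coding sequences, because both factors are known for dNTP supply genes. E2F was searched as TTTCCCGC, TTTCCCGG, TTTCGCGC, TTTCGCGG, TTTGCCGC, TTTGCCGG, TTTGGCGC and TTTGGCGG, SOG1 as CTTNNNNNNNAAG, and the mitosis-specific activator element as AACGG, each on both strands. In the 500 bases before the start codon, E2F letters occurred 3 times in TSO2 and 3 times in RNR1, SOG1 letters once in each of these genes, and neither occurred in RNR2A, TK1A or TK1B. The sites of TSO2 and RNR1 are shown on the gene's own strand with the matched letters in capitals, followed by the single match of TK1A to the mitosis-specific element. A further E2F match of RNR1 overlaps the second on the other strand.
TSO2 E2F site at chr3:9981514-9981539: aaaacacatTTTGGCGCgtgtaacat
TSO2 E2F site at chr3:9981376-9981401: tatacttacCCGGCAAAtttatcgca
TSO2 E2F site at chr3:9981354-9981379: cgcatgttgCCGCCAAActttatcac
TSO2 SOG1 site at chr3:9981279-9981307: cccttcatCTTCCTCAACAAGcttttttc
RNR1 E2F site at chr2:9293262-9293287: tagaagctgGCGGGAAAatcccaaaa
RNR1 E2F site at chr2:9293281-9293306: cccaaaactTTTCCCGGgaaagtaga
RNR1 SOG1 site at chr2:9293247-9293275: ataggctcCTTCTCCTAGAAGctggcggg
TK1A mitosis-specific element at chr3:2491215-2491237: ttttaaattCCGTTtatagtgtt

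Among 20543 such windows of tested coding genes, 6.94% held E2F letters, 19.9% held SOG1 letters and 36.3% held the mitosis-specific letters. All E2F letters of TSO2 and RNR1 lie after the annotated transcript start, at 90, 228 and 250 bases after it in TSO2 and at 10, 29 and 33 bases in RNR1. In the 250 bases before the annotated start, none of the 5 genes held E2F or SOG1 letters, which 2.98% and 9.1% of 21181 such promoters did. The longer window was chosen after that result was seen. A match is a description of the letters and not a site shown to be bound.

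**Figure D1:**
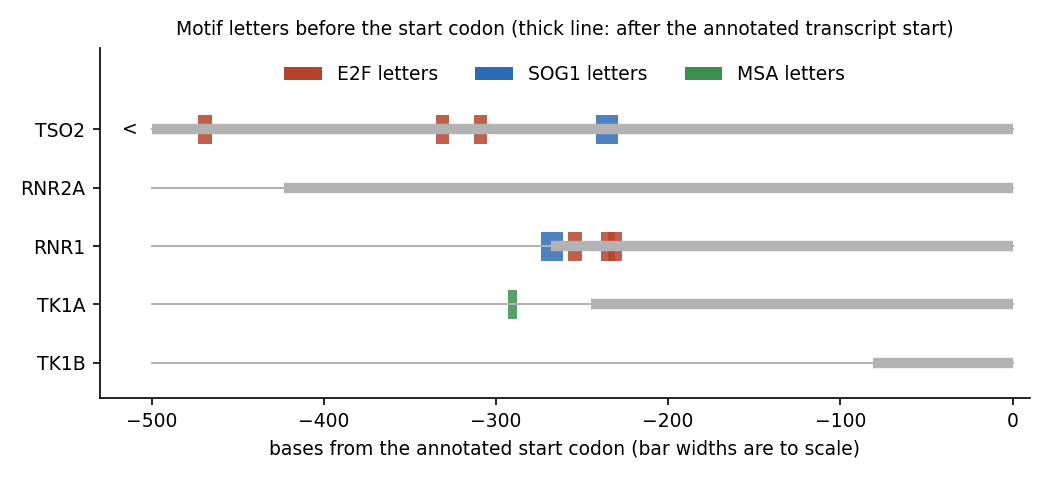
Positions of E2F, SOG1 and mitosis-specific letters in the 500 bases before the start codon of each gene, with the distance to the start codon in bases on the horizontal axis and 1 line per gene; the thick part of a line is transcribed according to the annotation. The matches of TSO2 and RNR1 fall in or at the edge of the transcribed part, and RNR2A and TK1B have none.

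Of the small subunit genes, TSO2 was higher in zdp-1 ape2-2 and RNR2A showed no difference past the threshold. TSO2 reached 348, 345 and 346 CPM in zdp-1 ape2-2 replicates A, B and C, against 78.2, 80.0 and 76.1 CPM in Col-0 replicates A, B and C. All 3 mutant samples lay more than 4-fold above every wild-type sample, and the samples within each group were close together, with a coefficient of variation of 0.448% in zdp-1 ape2-2 and 2.49% in Col-0. TSO2 rose by 2.15 ± 0.03 on the log2 scale, or 4.43-fold (SE, n = 3 each; edgeR quasi-likelihood test with Benjamini-Hochberg adjustment over all genes tested, adjusted p = 2.37e-40). TSO2 is the small subunit gene whose loss is known to cause developmental defects and sensitivity to DNA damage in Arabidopsis.

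RNR2A counted 28.2, 28.7 and 26.9 CPM in zdp-1 ape2-2 and 27.6, 27.6 and 26.2 CPM in Col-0. The groups overlapped, and the difference of 0.04 ± 0.04 on the log2 scale had a 95% interval of -0.04 to 0.12 and did not pass the test (SE, n = 3 each; edgeR adjusted p = 0.458). With scaling by library totals alone it was 0.11 and passed (adjusted p = 0.0418). Exons of AT3G23570, on the opposite strand, lie over 9.05% of the exon bases of RNR2A. That neighbour was higher in zdp-1 ape2-2 by 0.27 ± 0.04 on the log2 scale (SE; edgeR adjusted p = 1.79e-07), and without a stated strand setting reads in the shared 153 bp cannot be told apart.

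The large subunit gene RNR1 was also higher in the mutant, by less than TSO2. Its values were 185, 189 and 186 CPM in zdp-1 ape2-2, against 93.3, 88.5 and 91.8 CPM in Col-0. No mutant sample came near a wild-type sample. RNR1 rose by 1.03 ± 0.03 on the log2 scale, or 2.05-fold (SE, n = 3 each; edgeR adjusted p = 6.56e-29). The log2 fold change of TSO2 exceeded that of RNR1 by 1.11 ± 0.04 (SE). The per-sample differences of the genes did not overlap between genotypes (two-sided exact permutation p = 0.1, the smallest that 3 against 3 allows). After adjustment over the 10 pairs of genes this p was 0.1. All 10 pairs gave the same, even RNR2A and TK1B at a difference of 0.15. The lack of overlap thus does not set TSO2 and RNR1 apart.

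Of the thymidine kinase genes, TK1A was higher in zdp-1 ape2-2 and TK1B was not called. TK1A counted 95.3, 94.9 and 93.4 CPM in zdp-1 ape2-2, against 20.6, 19.9 and 20.4 CPM in Col-0. The wild-type samples spanned less than 1 CPM, and each mutant sample stood more than 4-fold above them. TK1A rose by 2.22 ± 0.03 on the log2 scale, or 4.65-fold (SE, n = 3 each; edgeR adjusted p = 2.17e-36), and the sizes of the changes in TK1A and TSO2 differed by 0.07 ± 0.03 (SE; exact permutation p = 0.1). TK1A is the cytosolic enzyme of the pair in Arabidopsis.

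TK1B, whose product is found in organelles in Arabidopsis, counted 13.2, 11.7 and 11.3 CPM in zdp-1 ape2-2 and 13.1, 13.7 and 12.2 CPM in Col-0. The groups overlapped, with zdp-1 ape2-2 replicate A among the wild-type samples. The difference was -0.11 ± 0.06 on the log2 scale with a 95% interval of -0.24 to 0.01 (SE, n = 3 each; edgeR adjusted p = 0.149). Without that replicate the difference was -0.18 and passed the test (edgeR adjusted p = 0.0321). With 373 to 502 counts per library, counting error alone is 4.46 to 5.18% of a TK1B value, and the coefficient of variation was 8.03% in zdp-1 ape2-2 and 5.80% in Col-0. Exons of TGH, on the opposite strand, lie over 3.61% of the exon bases of TK1B.

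**Figure D2:**
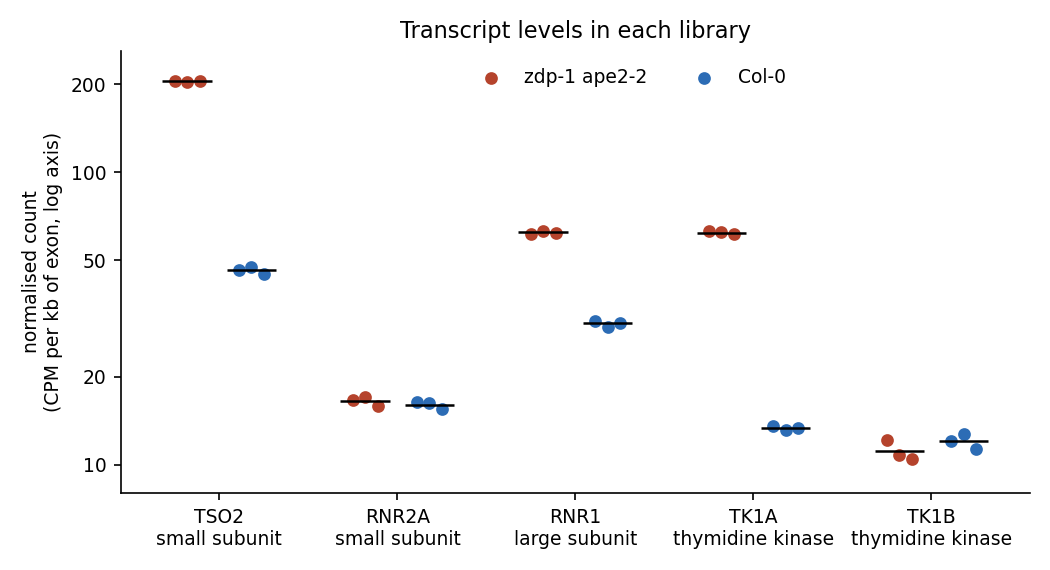
Normalised counts (CPM per kb of exon, log axis) of the 5 genes in each sample, with zdp-1 ape2-2 left of Col-0. Points are samples, and each horizontal line is the mean of 3. The 3 mutant samples lie above all wild-type samples for TSO2, RNR1 and TK1A, and the groups overlap for RNR2A and TK1B.

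Read against all genes tested, being called is a weak distinction in this comparison, and the size of the change is a stronger one. edgeR called 43.4% of the 21182 genes at an adjusted p below 0.05, with 22.2% higher and 21.2% lower in zdp-1 ape2-2, and all mutant samples lay above all wild-type samples in 25.5% of genes and below them in 24.8%. With scaling by library totals alone the calls split unevenly, 6964 higher and 2717 lower, against 4699 higher and 4498 lower with TMM. Of the 5 genes, 3 were called higher, and none was called lower. The same 3 genes had all mutant samples above all wild-type samples. Only 2.51% of all genes were called and at least 2-fold higher. By their estimates TSO2, RNR1 and TK1A were all among them, RNR1 with a 95% interval of 0.98 to 1.09 on the log2 scale. The same 3 genes were also among the 2.69% called higher by edgeR's test against a 1.5-fold change, and among the 7.87% called higher with the biological coefficient of variation, the relative spread between replicates, set to 0.1 in place of the estimated 1.99%. Ranked by log2 fold change from the highest, TK1A stood at 106 and TSO2 at 111 of 21182, within the top 0.5004% and 0.524%, and RNR1 at 491, within the top 2.32%. RNR2A stood at 8775 and TK1B at 15796, and the median of all genes was 0.002 on the log2 scale. Because the 5 genes were chosen with earlier results of these data known, their ranks are a description only.

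**Figure D3:**
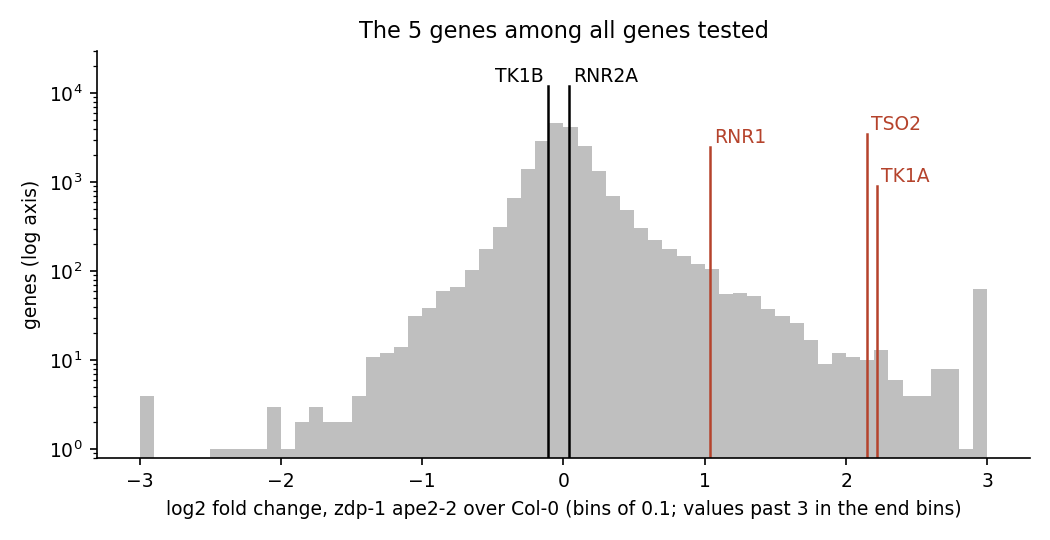
Log2 fold changes, zdp-1 ape2-2 over Col-0, of the 21182 genes tested, as numbers of genes per bin, with the 5 genes marked. RNR2A at 0.04 and TK1B at -0.11 lie in the centre, RNR1 at 1.03 in the upper flank, and TSO2 at 2.15 and TK1A at 2.22 in the far upper tail.

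Levels per kilobase of exon (CPM per kb) put the genes on 1 scale. In zdp-1 ape2-2 TSO2 was highest at 204.7 ± 0.917 CPM per kb (SD, n = 3). RNR1 at 62.3 ± 0.726 and TK1A at 62.2 ± 0.653 overlapped, and RNR2A at 16.5 ± 0.564 and TK1B at 11.2 ± 0.896 followed without overlap. In Col-0 the order was TSO2 at 46.1 ± 1.148, RNR1 at 30.4 ± 0.819, RNR2A at 16.1 ± 0.463, TK1A at 13.4 ± 0.232 and TK1B at 12.0 ± 0.699 CPM per kb, with no overlap between neighbours. TK1A thus stood above RNR2A in the mutant and below it in the wild type. By level per kb TSO2 lay at the percentile 98.3 of all genes tested in zdp-1 ape2-2 and 89.6 in Col-0, and TK1A at 92.5 in zdp-1 ape2-2 and 63.7 in Col-0.

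The balance within each enzyme shifted between the genotypes. Per kb, TSO2 exceeded RNR2A 12.3-, 12.0- and 12.8-fold in zdp-1 ape2-2 replicates A, B and C, against 2.83-, 2.90- and 2.90-fold in Col-0. TSO2 made up 92.5 ± 0.237% of the small subunit transcripts per kb in zdp-1 ape2-2 and 74.2 ± 0.272% in Col-0 (SD, n = 3 each). The difference of the log2 ratios was 2.11 ± 0.03 (SE). The TSO2 level thus made up most of the small subunit transcripts in both genotypes, and more of them in the mutant.

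The small subunit transcripts together stood to the large subunit as 3.61, 3.50 and 3.55 in zdp-1 ape2-2, against 2.01, 2.15 and 1.98 in Col-0, a difference of 0.80 ± 0.04 in log2 ratio (SE). Their sum was 221.2 ± 1.09 CPM per kb in zdp-1 ape2-2 and 62.2 ± 1.57 in Col-0, or 3.56-fold (SD, n = 3 each). The ratio of TK1A to TK1B was 5.15, 5.77 and 5.86 in zdp-1 ape2-2, against 1.12, 1.03 and 1.18 in Col-0, a difference of 2.33 ± 0.08 in log2 ratio (SE). In Col-0 the thymidine kinase genes were near equal per kb, with TK1A at 52.6 ± 1.73% of their sum, and in zdp-1 ape2-2 TK1A made up 84.8 ± 0.924% (SD, n = 3 each). For each of the 3 ratios the genotypes did not overlap, as for every pair of the 5 genes. The two-sided exact permutation p was 0.1, the smallest possible here, and 0.1 after adjustment over the 3. These are ratios of transcripts, and subunit proteins were not measured.

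**Figure D4:**
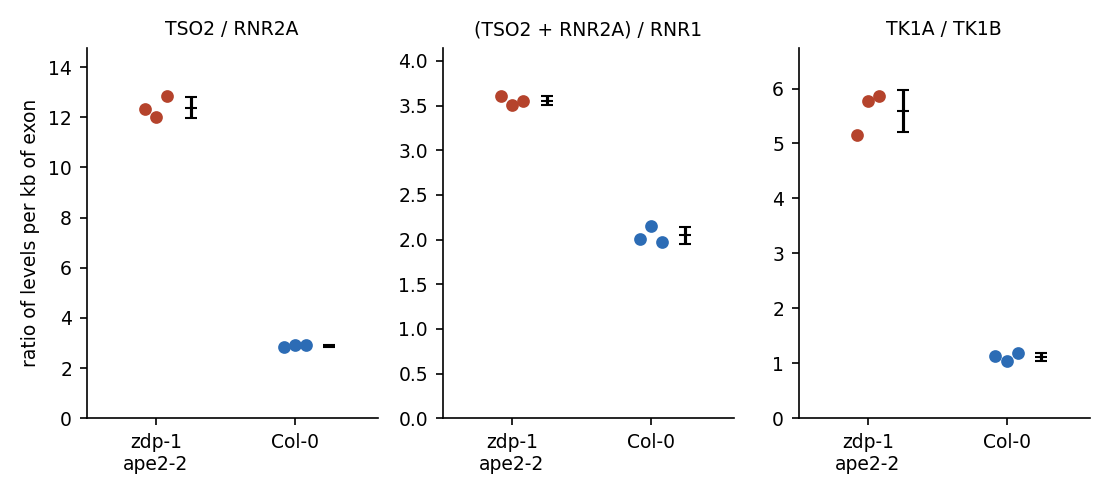
Ratios per kb of exon on a linear axis in each sample, zdp-1 ape2-2 left of Col-0. The panels show TSO2 to RNR2A, small to large subunit, and TK1A to TK1B. Points are samples and bars the mean and SD of 3. Every mutant ratio lies above every wild-type ratio.

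The other genes of dNTP metabolism changed little by comparison. Of 17 listed, 16 were tested, 7 were called higher, none was called lower, and none reached 2-fold; their median log2 fold change was 0.06, against 0.002 for all genes tested. The share called higher, 7 of 16 with the pseudogene RNR2B among the 7, stands beside 22.2% of all genes. DUT1, which removes dUTP, was 20.3 ± 0.995 CPM in zdp-1 ape2-2 and 15.0 ± 1.06 CPM in Col-0 (SD, n = 3 each), 0.44 ± 0.05 on the log2 scale (SE; edgeR adjusted p = 1.15e-08). GK2, a guanylate kinase, was 62.1 ± 1.5 CPM in zdp-1 ape2-2 and 49.5 ± 1.74 CPM in Col-0, 0.33 ± 0.03 on the log2 scale (edgeR adjusted p = 7.77e-11). NDPK3, a nucleoside diphosphate kinase, was 194 ± 1.23 CPM in zdp-1 ape2-2 and 168 ± 2.06 CPM in Col-0, 0.20 ± 0.02 on the log2 scale (edgeR adjusted p = 3.49e-09), with exons of AT4G11000 over 14.6% of its exon bases. The changes of DUT1, GK2 and NDPK3 were smaller than those of TSO2 and TK1A. DCD, a dCMP deaminase gene, at 0.30 ± 0.12 and UMK3, a UMP kinase gene, at 0.14 ± 0.03 were also called, and DCD lost its call when any of 4 samples was left out.

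RNR2B, another gene of the small subunit family, is annotated as a transcribed pseudogene. It counted 4.30 ± 0.388 CPM in zdp-1 ape2-2 and 3.27 ± 0.442 CPM in Col-0, 0.40 ± 0.11 on the log2 scale (SE; edgeR adjusted p = 0.00288). Its sequence is 82.2% identical to TSO2 over 1005 bp. The bifunctional thymidylate synthase genes THY1 and THY2, which make thymidine monophosphate de novo, had -0.08 (edgeR adjusted p = 0.0605) and 0.07 (adjusted p = 0.260) and were not called, and THY3, of the same family, was called at 0.42 ± 0.07 (SE; edgeR adjusted p = 1.21e-05). VEN4, a homolog of the animal dNTP hydrolase SAMHD1, had -0.07 ± 0.06 (edgeR adjusted p = 0.415). The remaining gene, CDA1, a cytidine deaminase, was listed at 0 in all 6 libraries, and since exons of AT2G19572 cover all of its exon bases this is no measure of its expression.

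**Figure D5:**
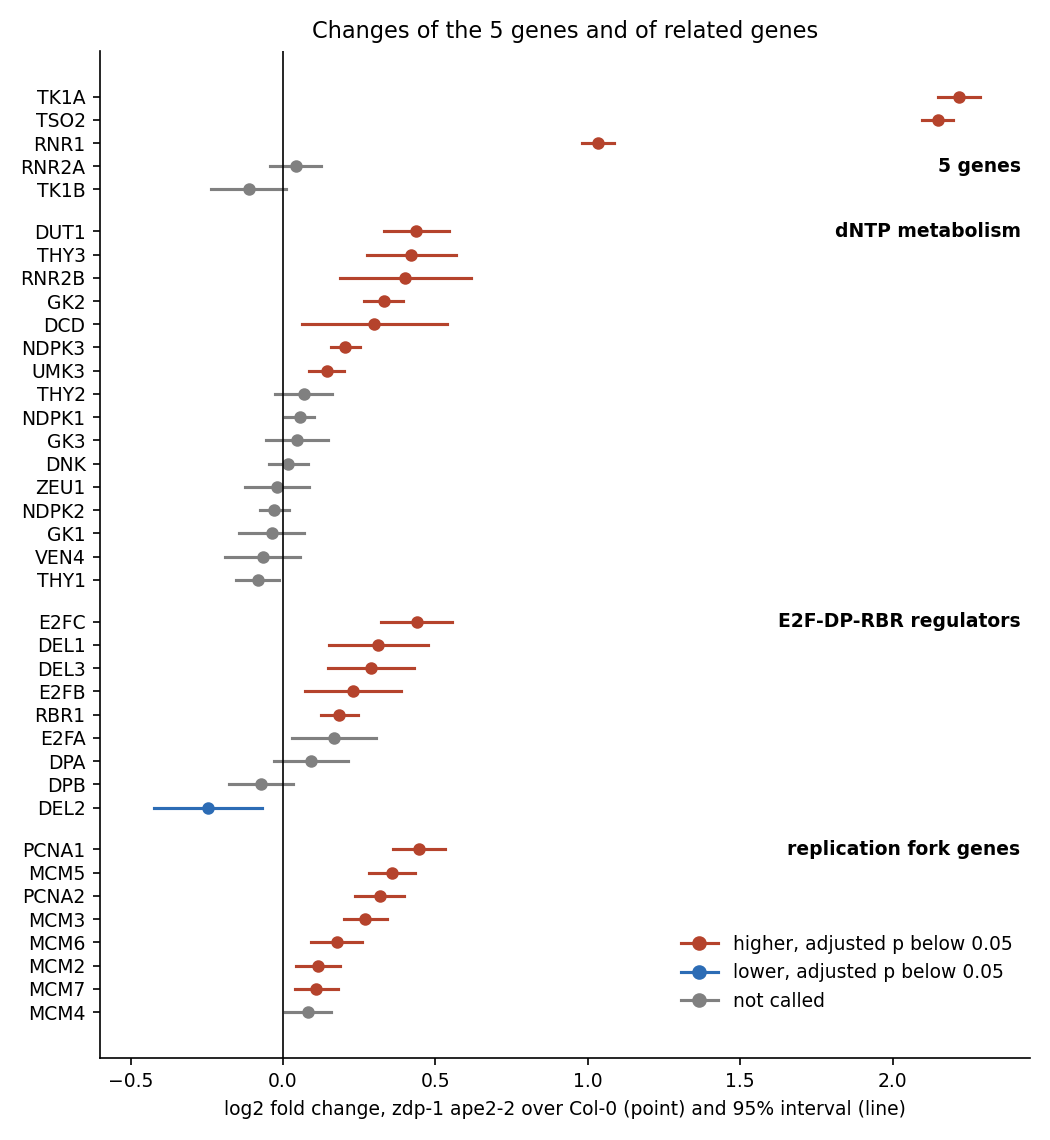
Log2 fold changes with 95% intervals, zdp-1 ape2-2 over Col-0. Shown are the 5 genes, the other tested genes of dNTP metabolism, the E2F, DP and RBR genes and the replication fork genes. The estimates of TSO2, RNR1 and TK1A lie above 1, and that of every other gene shown lies below 0.5. The interval of RNR1 runs from 0.98 to 1.09.

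Of 18 genes of de novo ribonucleotide synthesis tested, which lie further upstream, 8 were called higher and 2 lower, beside 22.2% and 21.2% of all genes, and 8 were not called; the median was 0.05. The genes with the smallest p were GMPS, the GMP synthase, at 0.30 ± 0.03 (SE; edgeR adjusted p = 1.85e-10), PYRB, the aspartate transcarbamoylase, at 0.25 ± 0.03 (adjusted p = 2.03e-07), and the CTP synthase gene CTPS1 at -0.19 ± 0.03 (adjusted p = 2.36e-07).

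Transcripts of the known regulators changed less than TSO2, RNR1 and TK1A did. Of 9 genes of the E2F, DP and RBR families, 5 were called higher and 1 lower, with a median of 0.19. Of all genes tested, 22.2% were called higher and 21.2% lower. E2FC, described as a repressor, was higher by 0.44 ± 0.06 (SE; edgeR adjusted p = 9.11e-08), the retinoblastoma homolog RBR1 by 0.19 ± 0.03 (adjusted p = 4.15e-06), and DEL3 by 0.29 ± 0.07 (adjusted p = 0.00111). Of the activators, E2FB was higher by 0.23 ± 0.08 (SE; edgeR adjusted p = 0.0187), and E2FA had 0.17 and was not called (adjusted p = 0.0523). Of 5 damage checkpoint genes, 2 were called higher and 3 lower, beside the same shares of all genes. WEE1, the kinase that delays entry into mitosis, was higher by 0.76 ± 0.08 (SE; edgeR adjusted p = 2.93e-10), SOG1 by 0.14 ± 0.05 (adjusted p = 0.0242), and ATM, a kinase gene, and ATRIP, which encodes the partner of the kinase ATR, were lower at -0.25 ± 0.04 and -0.28 ± 0.05. Transcript levels of these factors do not give their activity.

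Whole seedlings mix tissues, and in such bulk samples more cells of a type and more RNA per cell cannot be told apart. Of 8 replication fork genes, which mark S phase, 7 were called higher, with a median of 0.22 and a summed level of 307 to 309 CPM in zdp-1 ape2-2, against 261 to 265 CPM in Col-0; PCNA1, the sliding clamp, rose by 0.45 ± 0.04 and MCM5, a subunit of the replicative helicase, by 0.36 ± 0.04 on the log2 scale (SE). None of the 8 reached 2-fold. For comparison, 22.2% of all genes tested were called higher and 21.2% lower. Of 6 mitosis markers, 3 were called higher and 2 lower, and their sum of 211 to 213 CPM in zdp-1 ape2-2 lay within the 200.03 to 220.06 CPM of Col-0. The cell cycle marker sums differed by less than TSO2, RNR1 and TK1A did. Whether the number of cycling cells has a part in the results on these 3 genes was not tested.

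Markers of other tissues also moved, in a comparison that called 22.2% of all genes tested higher and 21.2% lower. All 5 leaf markers were called lower, with a sum of 27771 to 28774 CPM in zdp-1 ape2-2, against 34945 to 35365 CPM in Col-0, and 3 of 6 root markers were called lower, with 67.5 to 72.7 CPM in zdp-1 ape2-2, against 78.9 to 84.4 CPM in Col-0. Of 4 shoot meristem markers the 2 tested were called higher. The sum over all 4 was 7.93 to 8.18 CPM in zdp-1 ape2-2, against 3.64 to 4.04 CPM in Col-0. CLV3 and WUS were too low in both genotypes to be tested. CLV3 had counts of 0, 0 and 0 in zdp-1 ape2-2 and 1, 0 and 0 in Col-0. WUS had 3, 3 and 3 in zdp-1 ape2-2 and 0, 1 and 0 in Col-0. STM, a homeobox gene of the meristem, was higher by 1.02 ± 0.09, and CUC1, a boundary gene, by 1.26 ± 0.23 on the log2 scale (SE). Of 5 flower markers the 4 tested were called higher, with a sum of 24.6 to 25.0 CPM in zdp-1 ape2-2, against 9.89 to 10.3 CPM in Col-0; none was at 0 throughout a group. The floral organ genes SEP3, PI and AG were higher by 1.07 ± 0.06, 2.77 ± 0.16 and 2.17 ± 0.21 on the log2 scale (SE). The part of these markers in the results on TSO2, RNR1 and TK1A was not tested.

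The profiles most like those of the 5 genes were found among the 12759 genes that averaged 10 CPM or more, by the Euclidean distance between centred log2 CPM over the 6 samples. TSO2 and TK1A were each other's nearest genes, at a distance of 0.114. ATPMEPCRB, a pectin methylesterase gene (log2 fold change 2.07), and XRI1, an X-ray induced gene (2.102), followed for TSO2. PARP2, a poly(ADP-ribose) polymerase gene (2.26), and XRI1 followed for TK1A. RNR1 lay nearest to GSTF7, a glutathione transferase gene (distance 0.0401, log2 fold change 1.04), PYD4 (1.06) and CYP72A8 (1.05). With 1 contrast over 6 samples, such likeness mostly orders genes by the size of their difference between genotypes. The nearest genes of RNR2A, AT2G45260, MAPR4 and EMB2766, had log2 fold changes of 0.03 to 0.06, and those of TK1B, ZW18, AT3G09360 and AT1G73950, had -0.15 to -0.09.

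The tested genes next to TSO2, RNR1 and TK1A changed by less than these genes did, and AT2G21780, on the other side of RNR1, was too low to be tested. Beside TSO2, AT3G27050 was lower, at -0.35 ± 0.05 (SE; edgeR adjusted p = 4.44e-08), and TOM20-1, near 1 CPM, was called higher at 0.53 ± 0.22 (adjusted p = 0.0488). Downstream of RNR1, EME1A, a resolvase subunit gene that starts 216 bp away, was higher by 0.47 ± 0.11 (SE; edgeR adjusted p = 0.000864), at 3.68 CPM in zdp-1 ape2-2 and 2.66 CPM in Col-0. Beside TK1A, AT3G07790 had -0.07 and was not called (edgeR adjusted p = 0.0959), and AT3G07810 was higher by 0.20 ± 0.03 (SE; adjusted p = 6.00e-07).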

How the data were processed

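RNA-seq of 6 seedling samples was used, 3 of zdp-1 ape2-2 and 3 of Col-0, grouped by titles and genotype labels. The authors deposited whole-number read counts per gene, not normalised; STAR and TAIR10 are named per the submitters' processing notes, and the counting tool, strand setting and annotation release are not given in the sources used here. Genes were kept with filterByExpr of edgeR 4.0.16 in R 4.3.3 and scaled by TMM, and zdp-1 ape2-2 was tested against Col-0 with the quasi-likelihood F test on the genotype alone, at a Benjamini-Hochberg adjusted p below 0.05 over all genes tested, two-sided. The procedure was tested on simulated data. Per-sample ratios were compared with exact permutation tests. Copies were searched with BLAST 2.17.0, and sequences read from TAIR10.1, the NCBI release of this build; of 33489 genes, 33297 matched it in chromosome, start and end.

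The 5 genes, the gene lists and the tests were chosen with earlier results of these data known. Named besides them were ZDP and APE2, up to 3 called genes per list with the smallest p, RNR2B, VEN4, DUT1, THY1 and THY2. Also named were the 3 genes nearest in profile to each of the 5, and the flanking genes. THY3, DCD, UMK3, E2FA, E2FB, SOG1, CDA1, CLV3 and WUS were added after their values were seen. Depth was 31190605 to 37241739 counts per sample. Counting intervals cover counting error only. The chi-square of counts between libraries of a group was 1.57 to 1.96 per gene, more than counting error alone gives. This value cannot tell separately grown samples from separate libraries of the same RNA. Alternatives were other scalings, no filter, DESeq2 1.42.0, a replicate block, a set spread, a 1.5-fold threshold and leaving out each sample.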

Additional observations from a re-analysis of the deposited data

How the results depend on the processing

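TSO2, RNR1 and TK1A stayed past the threshold in the same direction under all 13 alternatives, with log2 fold changes of 2.13 to 2.21, 1.01 to 1.10 and 2.20 to 2.28. Scaling by library totals alone called 9681 genes, 6964 higher and 2717 lower (71.9% higher, against 51.1% with TMM), called 10 of the other dNTP genes higher, and moved RNR2A to 0.11, past the threshold (edgeR adjusted p = 0.0418). A biological coefficient of variation set to 0.1 called 2428 genes, 1668 higher and 760 lower, and 2 of the other dNTP genes; a test against a 1.5-fold change called 695 genes, 569 higher and 126 lower, and 0 of those dNTP genes, against 9197 genes and 7 dNTP genes in the comparison as reported. DESeq2 called 6645 genes. Leaving out each sample in turn, 8214 to 8621 genes were called, TSO2 ranged from 2.13 to 2.17, RNR1 from 1.01 to 1.05, RNR2A from 0.02 to 0.07, TK1A from 2.20 to 2.23 and TK1B from -0.18 to -0.072, called only without zdp-1 ape2-2 replicate A. The dNTP count ranged from 6 to 8; DCD lost its call without Col-0 replicate A, Col-0 replicate C, zdp-1 ape2-2 replicate B or zdp-1 ape2-2 replicate C, and THY1 was called lower without Col-0 replicate A. The log2 ratios ranged from 2.08 to 2.13, 0.77 to 0.83 and 2.28 to 2.39. The cause of these differences was not tested.

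With a replicate block 9450 genes were called, 4830 higher and 4620 lower, and 8 of the dNTP genes. The letters do not pair the samples: same-lettered samples' deviations from their group means correlated at -0.007, 0.066 and 0.013. Depth limits TK1B most, at 373 to 502 counts per library.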
